A study of Mus musculus with 11 samples.

Results

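The genes described here are 33 mouse genes of the NRF2 response, the glutathione and thioredoxin systems, other antioxidant enzymes and the pentose phosphate pathway. They were taken as a named list chosen by function, with earlier results of these data known, and each matched 1 of the 55416 gene identifiers in the data. Shares of all genes beside counts of members and of further lists are therefore descriptions. Of the 33, 30 were tested, as part of the 12909 genes whose normalized counts averaged 10 or more across the 11 libraries. Nqo1, Cbr3 and Gstm1 lay below that level. Polyadenylated RNA was sequenced from EC4, a line of mouse liver cancer cells, after 24 h in DMEM with 10 or 200 µM methionine. The groups were MYC high cells at 10 µM (3 libraries), MYC high cells at 200 µM (2 libraries, replicates 2 and 3), MYC low cells at 10 µM (3 libraries) and MYC low cells at 200 µM (3 libraries). The first replicate of the group with 2 libraries was not analysed here. The labels give MYC high cells the genotype MYC on and MYC low cells the genotype MYC off, and all cells were grown at 200 µM methionine beforehand. They do not say how MYC was switched, nor whether libraries came from separate cultures of this 1 line, so p-values reflect only how far these libraries scatter, and that scatter may be technical.

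NRF2, encoded by Nfe2l2, is a transcription factor that pairs with a small MAF protein on antioxidant response elements and raises genes for glutathione synthesis, detoxification, the thioredoxin system and NADPH supply. KEAP1 binds NRF2 and leads it to degradation, and oxidants or electrophiles that modify KEAP1 let NRF2 accumulate, so the response is set largely at the protein level. Glutathione is built from glutamate, glycine and cysteine, liver cells can make cysteine from methionine by transsulfuration, and the oxidative branch of the pentose phosphate pathway makes NADPH that keeps glutathione and thioredoxin reduced.

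Depth lay between 10858936 and 13085689 gene reads per library, and the lowest correlation between replicates of a group, across genes, was 0.993. The mouse Myc transcript, taken as a check of the labels, had 291, 366 and 350.3 normalized counts at 10 µM and 2164 and 2014 at 200 µM in MYC high libraries. Myc values in MYC low libraries were 320.0, 344 and 342 at 10 µM and 1106, 1133 and 1168 at 200 µM. The MYC high libraries were thus above the MYC low ones at 200 µM only (1.84-fold, limma, adjusted p = 5.99e-14), and the groups overlapped at 10 µM (adjusted p = 0.949). These reads were counted for the mouse gene, and whether any stemmed from an introduced MYC copy cannot be told here. The labels do not say how MYC was switched. Myc therefore cannot check the MYC state at 10 µM, where 71.5% of all genes tested differed between MYC high and MYC low cells by limma. Of the markers of adult hepatocytes, 0 of 10 reached a mean of 10, and Alb, Cps1, Cyp3a11, Serpina1a and Fga had 0 reads in all 11 libraries, whereas Krt8, Krt18 and Krt19 were abundant. The other epithelial markers listed were not, as Cdh1 averaged 0.092 and Cldn1 11.15 normalized counts. The summed level of 8 fetal liver and bile duct markers was 11929 to 13061 normalized counts at 10 µM and 1752 to 1814 at 200 µM in MYC high libraries. In MYC low libraries it was 11164 to 11406 at 10 µM and 3335 to 3654 at 200 µM. Most of that sum was Krt19, and Afp ran the same way. Sox9 ran the other way, with means of 43 at 10 µM and 150 at 200 µM in MYC high cells. Its means in MYC low cells were 120 at 10 µM and 199 at 200 µM. Gpc3, Igf2 and Epcam had 0 reads, and H19 and Dlk1 averaged 0.28 and 0.21 normalized counts. None of 8 fibroblast and 6 endothelial markers reached a mean of 10. For 6 macrophage markers, of which Ptprc and Clec4f had 0 reads, the sums were 1061 to 1133 at 10 µM and 644 to 674 at 200 µM in MYC high libraries, and 1299.8 to 1412 at 10 µM and 919 to 963 at 200 µM in MYC low ones. Its members ran different ways: in MYC high cells Cd68 averaged 454 at 10 µM and 28.1 at 200 µM, and Cd14 205 and 385. These sums moved with the groups, and their part in the results below was not tested. Fewer cells of a kind and less RNA per cell cannot be told apart in bulk RNA.

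A mouse promoter table from RefSeq (build GRCm38.p6) gave the 250 bases before the start of 27 of the 33 genes, and none for Hmox1, Gclc, Gsr, Prdx6, Abcc1 and Abcc3. The core of the antioxidant response element, TGACNNNGC on either strand, was found before the start of 8 of the 27 (29.6%), namely Nfe2l2, Gclm, Txnrd1, Prdx1, Abcc4, G6pdx, Sod1 and Ugdh. Among all 32851 windows of the same length 10.2% held it, as did 11.5% of 27025 genes. The E-box CACGTG, a sequence bound by MYC with MAX, was found for Abcc4 alone (3.7% of the 27), and 6.02% of all windows and 6.86% of genes held it. The 6 stretches below, 5′ to 3′ on the gene's strand with the core in capitals, are shown because their genes differ in the methionine responses described further on: Gclm, Prdx1, G6pdx and Sod1 were higher at 10 µM in both MYC states, Ugdh moved in opposite directions and Txnrd1 was lower in both. They lie at chr3:122245373-122245481 (plus strand), chr4:116685416-116685524 (plus), chrX:74428881-74428987 (minus), chr16:90220656-90220761 (plus), chr5:65435878-65436024 (minus) and chr10:82859064-82859172 (plus), and Ugdh has 2 cores. Not shown are Abcc4, lower at 10 µM in both MYC states, and Nfe2l2, lower in MYC high and higher in MYC low cells. For Nfe2l2, the bases just after the start used were not found in an annotated transcript of the gene. A match is a description of these letters, not of binding.
Gclm: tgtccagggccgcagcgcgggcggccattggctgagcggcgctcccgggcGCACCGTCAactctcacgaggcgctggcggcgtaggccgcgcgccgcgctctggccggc
Prdx1: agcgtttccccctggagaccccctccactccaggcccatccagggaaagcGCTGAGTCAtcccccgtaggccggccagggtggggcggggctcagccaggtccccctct
G6pdx: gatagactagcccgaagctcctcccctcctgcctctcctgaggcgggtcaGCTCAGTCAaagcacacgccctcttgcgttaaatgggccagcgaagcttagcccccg
Sod1: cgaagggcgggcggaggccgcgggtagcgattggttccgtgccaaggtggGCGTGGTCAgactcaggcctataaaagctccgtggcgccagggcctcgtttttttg
Ugdh: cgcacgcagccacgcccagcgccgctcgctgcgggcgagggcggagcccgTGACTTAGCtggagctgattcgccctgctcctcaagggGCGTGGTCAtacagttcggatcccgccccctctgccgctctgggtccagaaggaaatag
Txnrd1: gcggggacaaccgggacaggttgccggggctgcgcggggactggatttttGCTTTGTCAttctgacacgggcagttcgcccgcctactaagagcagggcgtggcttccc

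Across the 4 groups, most of the genes had their lowest level in MYC high cells at 200 µM, the cells with the most Myc transcript. The lowest of the 4 group means stood there for 17 of the 30 tested members, against 34.0% of all genes tested, a count without a test. These 17 were Keap1, Ephx1, Ugdh, Gclc, Gclm, Gsr, Gstp1, Gsto1, Srxn1, Prdx1, Prdx2, Abcc1, Abcc3, G6pdx, Pgd, Taldo1 and Cat. The highest group mean stood in MYC low cells at 10 µM for 13 members (24.8% of all genes) and in MYC high cells at 10 µM for 11 (24.6%). It stood in MYC high cells at 200 µM for Prdx6 and Txnrd1 alone (2 members, 33.9% of all genes), and in MYC low cells at 200 µM for 4 (16.7%). Per kilobase of exon, averaged over all libraries, Sod1 (5619 normalized counts), Gpx4 (5511), Gstp1 (4611) and Gsto1 (3938) had the highest levels of the tested members, and Sod2 (99.2) and Keap1 (170.2) the lowest.

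**Figure D1:**
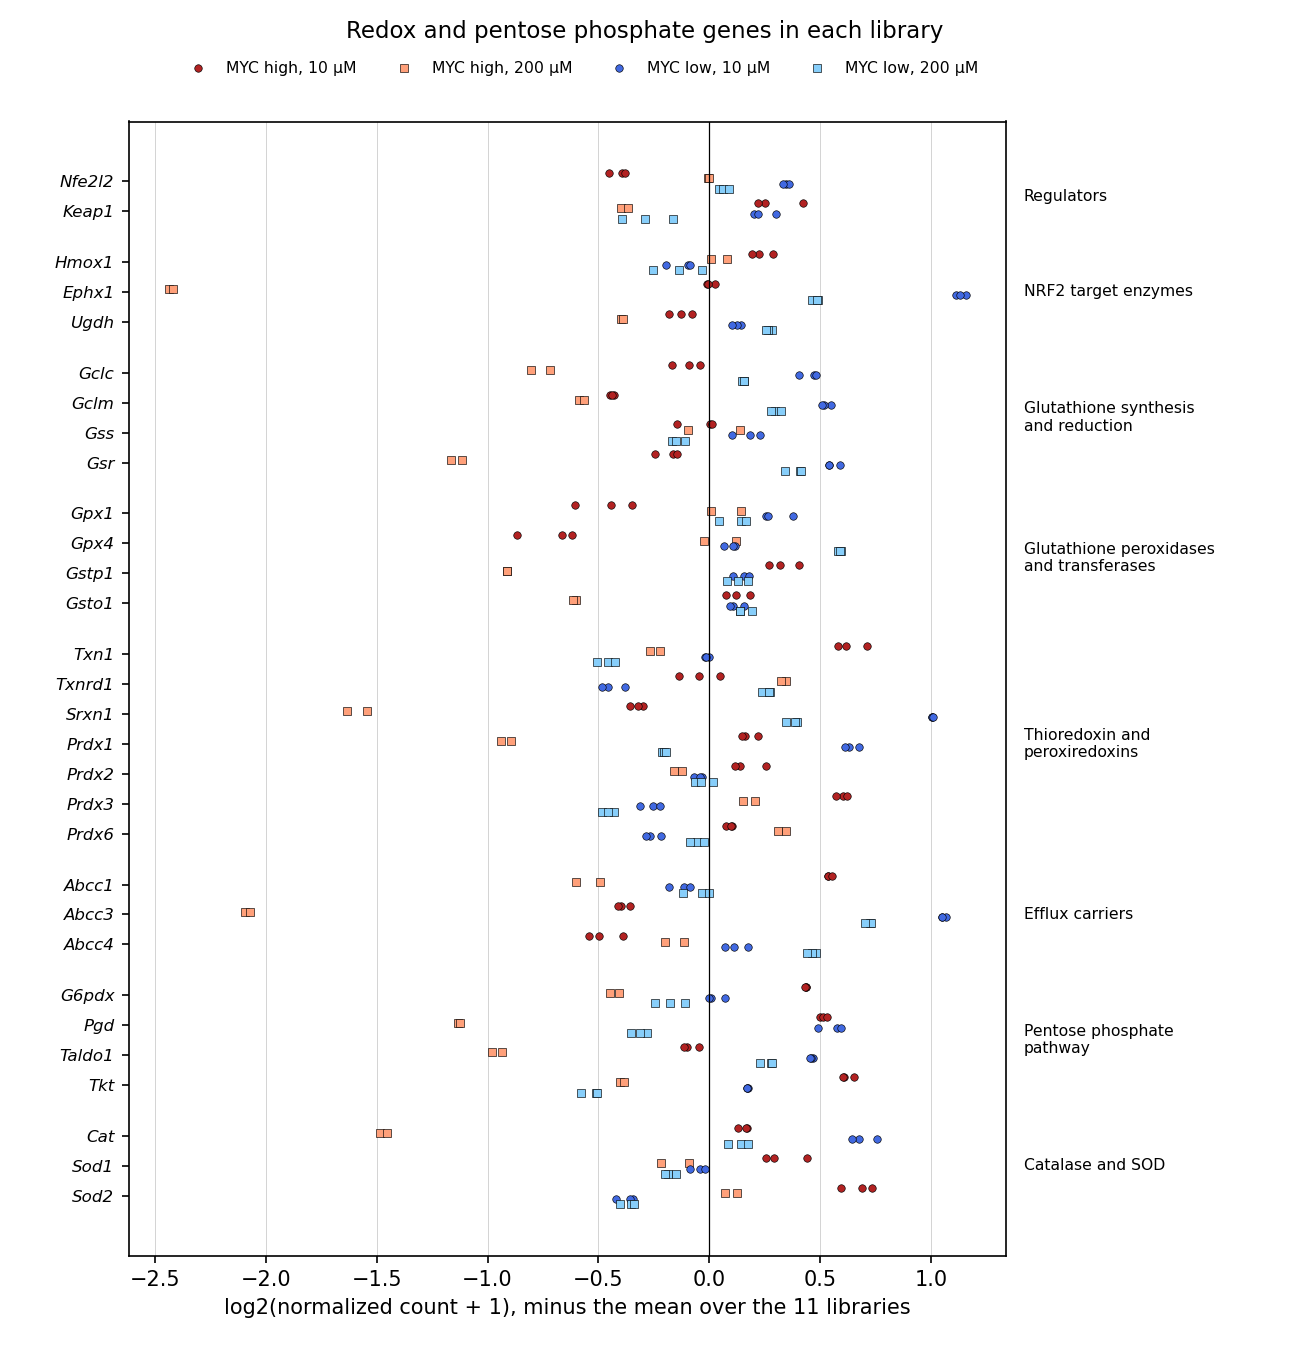
Level of the 30 tested genes in each of the 11 libraries, as log2(normalized count + 1) minus the gene's mean over the libraries, with genes on the vertical axis by role. Circles are libraries at 10 µM and squares libraries at 200 µM, and the squares of MYC high cells lie farthest to the left for Ephx1, Abcc3, Srxn1 and Cat.

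Most of these genes were higher at 10 µM than at 200 µM methionine. For 22 of the 30 the signed response in MYC high cells lay above that in MYC low cells by the interaction test given further on. Among these 22, Txnrd1 fell in both MYC states, and its fall was the smaller in MYC high cells. In MYC high cells 23 of 30 members rose and 6 fell, when 75.8% of all genes tested passed the limma threshold of an adjusted p under 0.05, 37.9% as higher and 37.9% as lower. In MYC low cells 19 rose and 5 fell, against 59.4% of all genes (29.4% higher, 29.9% lower). The median log2 difference of the members, on the log2(normalized count + 1) scale used for all differences here, was 0.67 in MYC high cells and 0.20 in MYC low cells, and the medians of all genes were -0.004 and 0.001. The share of members that passed was above that of all genes in both MYC states, and the rises outnumbered the falls among members but not among all genes. The tested members averaged 581 (Sod2) to 7010 (Gpx4) normalized counts, whereas all genes tested include any with a mean of 10 or more. The shares were not compared at like levels of expression.

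The comparisons made within each MYC state share no library, but their tests use a common estimate of spread per gene from all libraries. Rising in both were 16 members (21.6% of all genes did so): Keap1, Ephx1, Gclc, Gclm, Gsr, Txn1, Srxn1, Prdx1, Prdx3, Abcc3, G6pdx, Pgd, Taldo1, Tkt, Cat and Sod1. Gpx4, Txnrd1, Prdx6 and Abcc4 fell in both (4 members, 21.6% of all genes). Hmox1, Gstp1, Gsto1, Prdx2, Abcc1 and Sod2 rose in MYC high cells and did not pass in MYC low cells (6 members, 13.0% of all genes). Opposite calls were found for Ugdh, higher in MYC high and lower in MYC low cells (3.32% of all genes), and for Nfe2l2 and Gpx1, lower in MYC high and higher in MYC low cells (3.43%). Gss rose in MYC low cells and did not pass in MYC high cells (4.45% of all genes), and 0 members were lower in MYC low cells without a call in MYC high cells (4.98%).

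**Figure D2:**
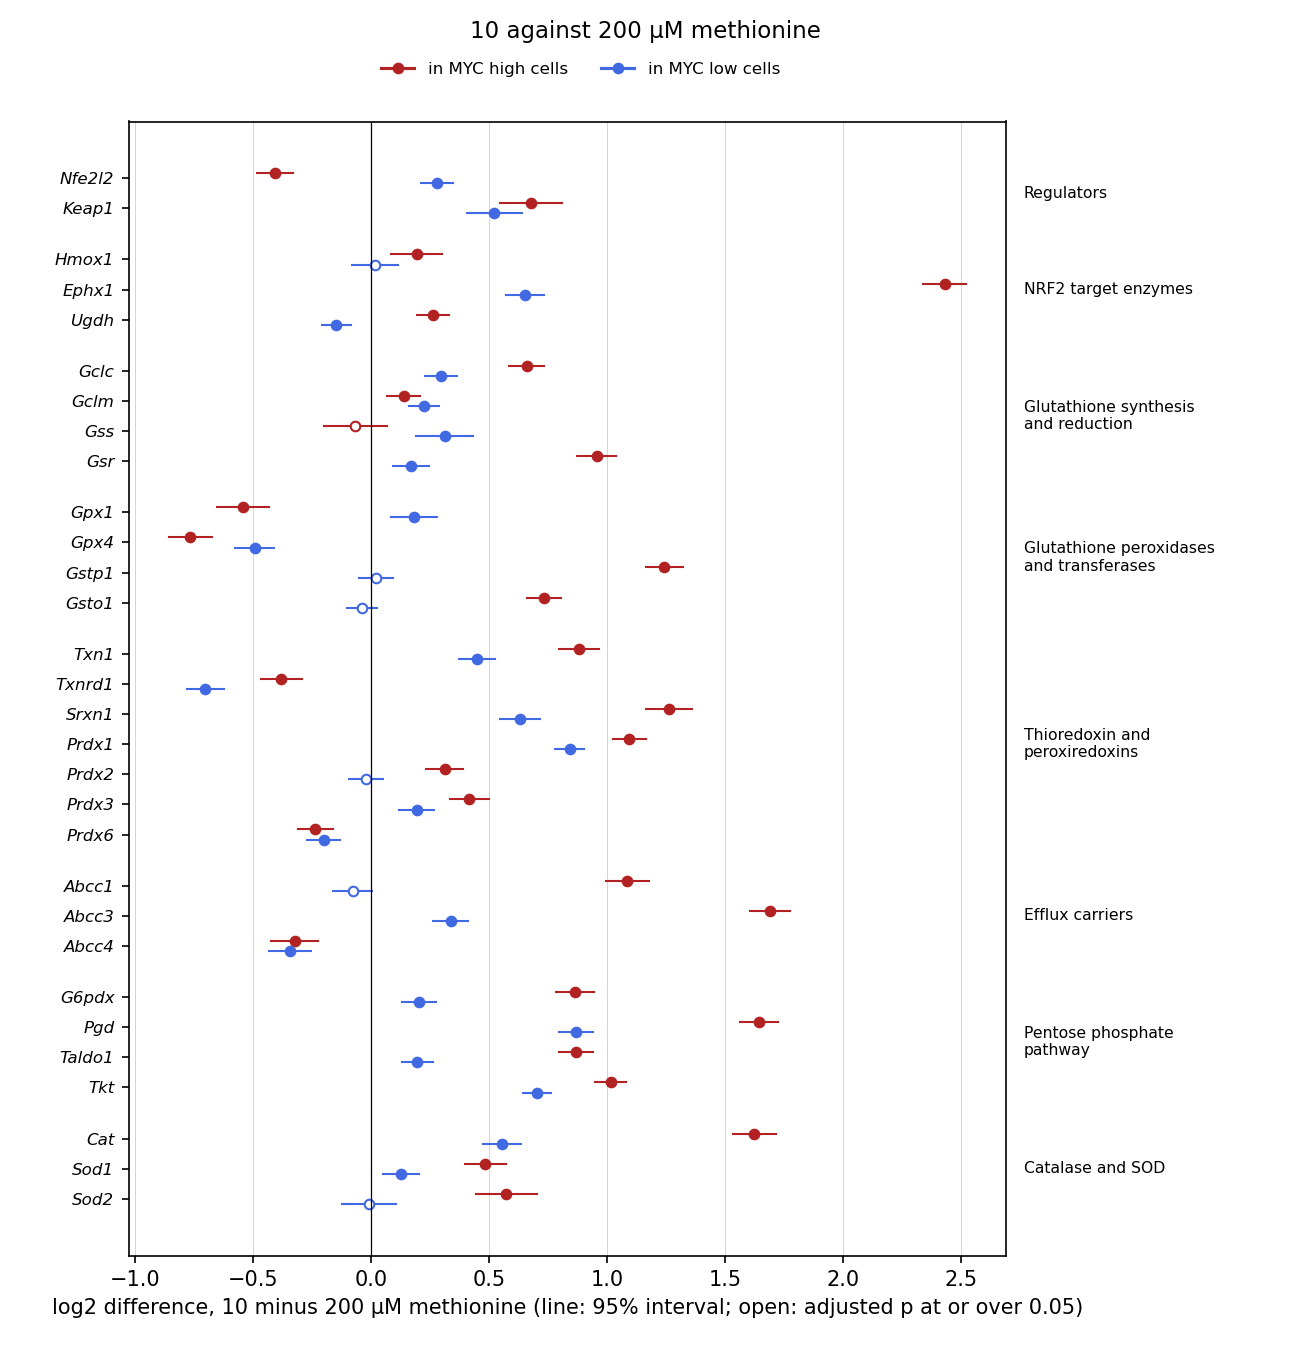
Difference between 10 and 200 µM methionine for each tested gene, as a log2 difference with its 95% interval, in MYC high cells (red) and MYC low cells (blue). Open circles did not pass an adjusted p of 0.05, and the red points of Ephx1, Abcc3, Pgd and Cat lie farthest to the right.

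The interaction, which is the response to 10 µM in MYC high cells minus that in MYC low cells, was positive and past the threshold for 22 of 30 members and negative for 4, against 60.4% of all genes (31.0% positive, 29.4% negative). Its median was 0.36 for the members and 0.010 for all genes. The largest values were those of Ephx1 (1.78 ± 0.06, SE), Abcc3 (1.35 ± 0.056), Gstp1 (1.22 ± 0.052), Abcc1 (1.16 ± 0.061) and Cat (1.07 ± 0.06). Nfe2l2, Gss, Gpx1 and Gpx4 were the negative ones. Keap1, Gclm, Prdx6 and Abcc4 did not pass, with 95% intervals of the interaction of -0.019 to 0.33 for Keap1, -0.18 to 0.008 for Gclm, -0.14 to 0.068 for Prdx6 and -0.11 to 0.15 for Abcc4. Without replicate 2 of MYC low cells at 200 µM the interaction of Keap1 passed (0.21, adjusted p = 0.039).

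**Figure D3:**
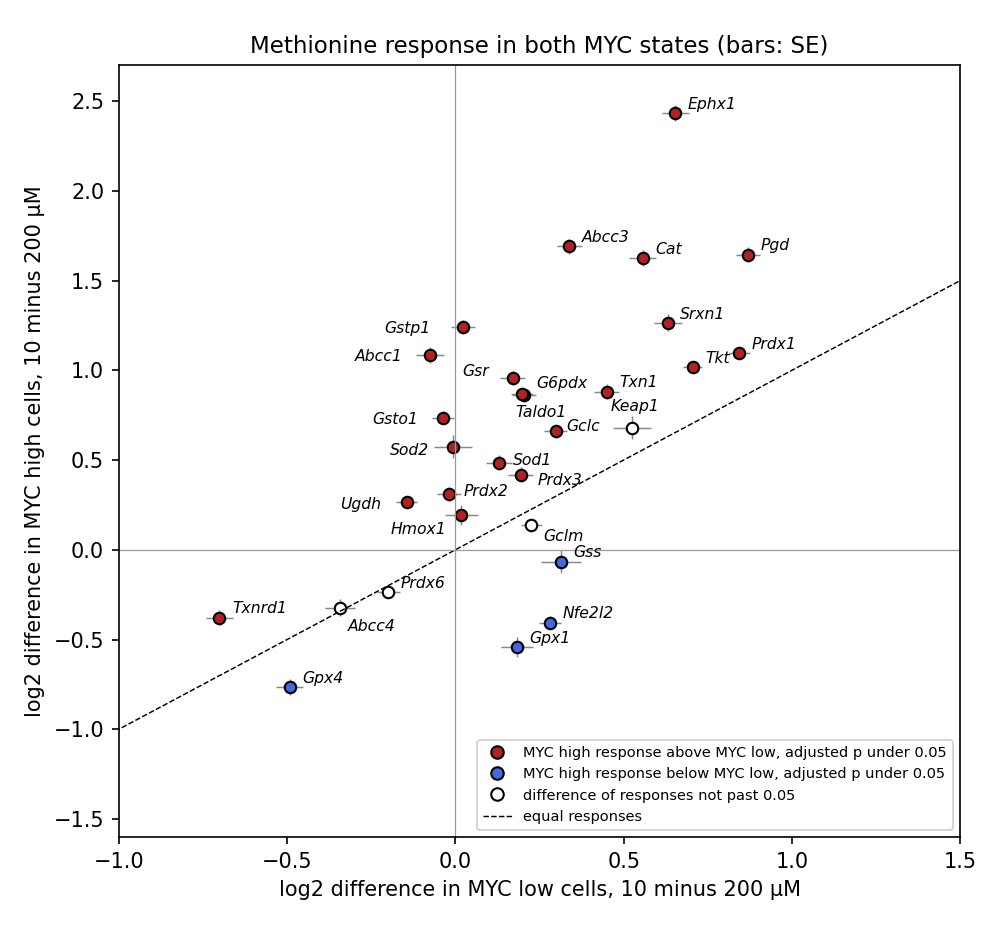
Log2 difference between 10 and 200 µM methionine in MYC high cells (vertical) against that in MYC low cells (horizontal) for the 30 tested genes, with SE bars and a dashed line of equal responses. Red genes lie above the line and blue ones below it with an adjusted p of the interaction under 0.05, and Ephx1 stands highest above it.

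The MYC state went with lower levels of many of these genes at 200 µM. This comparison, the methionine comparison in MYC high cells, the interaction and the lowest group means share the MYC high libraries at 200 µM. A low level in that group enters all of them, so they are not independent results. Of 30 members, 7 were higher and 18 lower in MYC high than in MYC low cells at 200 µM, when 74.4% of all genes passed (36.8% higher, 37.6% lower). With values rescaled to a common library total, the split was 4 higher and 21 lower. At 10 µM 12 members were higher and 15 lower, against 71.5% of all genes (35.7% higher, 35.8% lower). The median log2 difference of members was -0.52 at 200 µM and -0.13 at 10 µM, and that of all genes -0.003 and 0.002. At 10 µM the members' median was -0.016 without a filter on low values and -0.184 with a common library total, where that of all genes was -0.056. At 200 µM the lower calls stood above the share of all genes, and at 10 µM the split between higher and lower was close to even.

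The comparisons at 10 and 200 µM share no library either, but again use the common estimate of spread. MYC high cells were lower at both levels of methionine for 12 members (23.7% of all genes): Ephx1, Ugdh, Gclc, Gclm, Gsr, Gpx4, Srxn1, Prdx1, Abcc3, Abcc4, Taldo1 and Cat. They were higher at both for Hmox1, Txn1, Prdx3, Prdx6, Tkt and Sod2 (6 members, 23.2% of all genes). Gstp1, Prdx2, Abcc1 and G6pdx were lower in MYC high cells at 200 µM and higher at 10 µM (4 members, 5.23% of all genes), and Gss had the opposite pair of calls (4.75%). Gsto1 and Pgd were lower at 200 µM only (2 members, 8.63% of all genes), and 0 members were higher at 200 µM only (8.78%). Sod1 and Txnrd1 were called higher at 10 µM only (7.26%), Nfe2l2 and Gpx1 lower at 10 µM only (7.3%), and Keap1 at neither (11.1%).

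**Figure D4:**
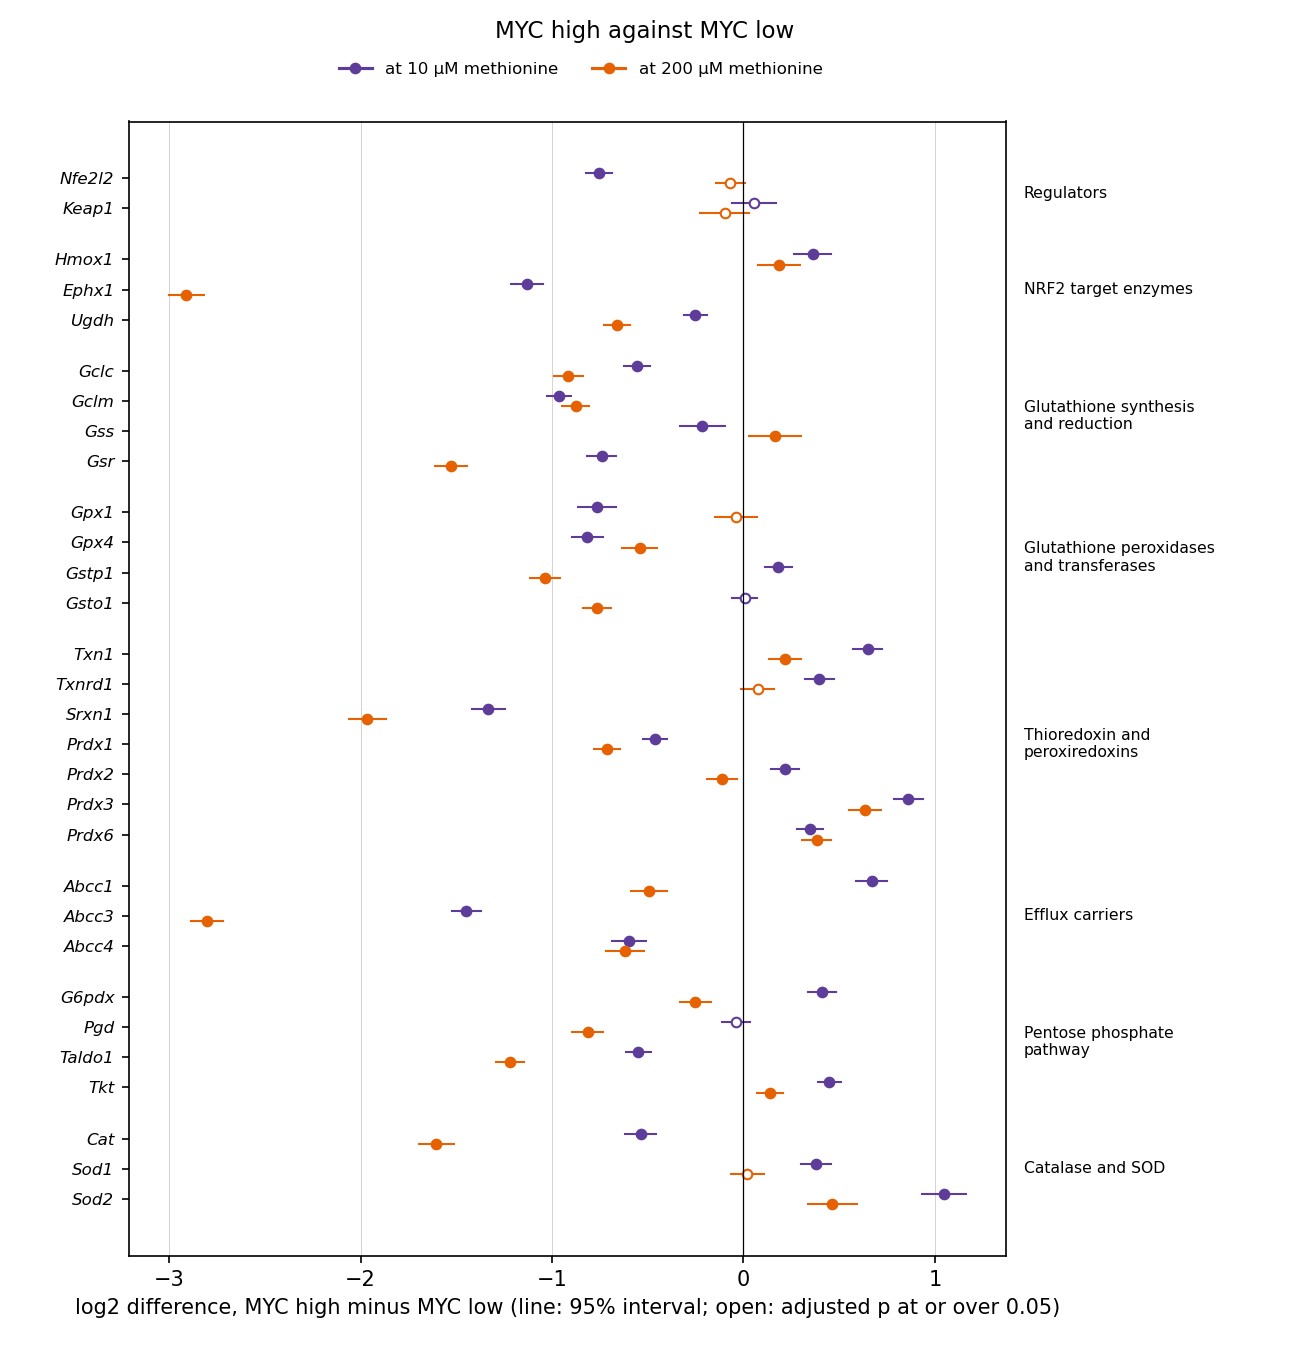
Difference between MYC high and MYC low cells for each tested gene, as a log2 difference with its 95% interval, at 10 µM (purple) and 200 µM methionine (orange). Open circles did not pass an adjusted p of 0.05, and at 200 µM Ephx1 (-2.91) and Abcc3 (-2.80) lie farthest to the left.

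Of the regulators, the transcript of NRF2 and that of its inhibitor moved differently. Nfe2l2 (ENSMUSG00000015839, chromosome 2) had 2194, 2110.4 and 2219 normalized counts at 10 µM and 2877 and 2884 at 200 µM in MYC high libraries. Nfe2l2 values in MYC low libraries were 3670.0, 3707 and 3631 at 10 µM and 2979.6, 3011 and 3069 at 200 µM. At 10 µM it was lower in MYC high cells (-0.41 ± 0.037, adjusted p = 1.61e-12) and higher in MYC low cells (0.28 ± 0.033, adjusted p = 2.08e-09), and the interaction was -0.69 ± 0.049 (adjusted p = 1.08e-14), all by limma. No library of one group overlapped another in these comparisons. Between MYC states at 200 µM the difference of -0.068 did not pass (95% interval -0.14 to 0.006), although it did at -0.15 with a common library total. Keap1 (ENSMUSG00000003308, chromosome 9) had 891, 1004 and 872 normalized counts at 10 µM and 568 and 581 at 200 µM in MYC high libraries. Keap1 values in MYC low libraries were 861, 924 and 872 at 10 µM and 668, 570.0 and 613 at 200 µM. Its libraries at 10 µM were all above those at 200 µM, by 1.6-fold in MYC high and 1.44-fold in MYC low cells (limma, adjusted p = 5.28e-12 and 4.91e-10). The MYC states overlapped in Keap1 at both methionine levels. The difference at 200 µM of -0.10 passed with a common library total (-0.19) and without replicate 2 of MYC low cells at 200 µM (-0.16).

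Among enzymes known as NRF2 targets, Ephx1 (ENSMUSG00000038776, chromosome 1), the microsomal epoxide hydrolase, varied most of all 30 members. It had 1214, 1246 and 1220.1 normalized counts at 10 µM and 225 and 228 at 200 µM in MYC high libraries. Ephx1 values in MYC low libraries were 2736, 2645 and 2682 at 10 µM and 1723, 1686 and 1717 at 200 µM. The MYC high libraries at 200 µM were far below every other library. Ephx1 was 5.41-fold higher at 10 µM than at 200 µM in MYC high cells (log2 2.43 ± 0.045, adjusted p = 1.67e-33) and 1.57-fold higher in MYC low cells (0.65 ± 0.04, adjusted p = 1.17e-16). Between MYC states it was 7.54-fold lower in MYC high cells at 200 µM and 2.19-fold lower at 10 µM. Ugdh (ENSMUSG00000029201, chromosome 5), which makes UDP-glucuronate for glucuronidation, had 4358, 4526 and 4682 normalized counts at 10 µM and 3751 and 3776 at 200 µM in MYC high libraries. Ugdh values in MYC low libraries were 5451, 5389.8 and 5303 at 10 µM and 6012, 5935 and 5904 at 200 µM. It was higher at 10 µM in MYC high cells (0.26 ± 0.034, adjusted p = 9.73e-09) and lower in MYC low cells (-0.14 ± 0.03, adjusted p = 9.31e-05), with no overlap in either. Hmox1 (ENSMUSG00000005413, chromosome 8), heme oxygenase 1, changed little, with 1414, 1476 and 1383 normalized counts at 10 µM and 1213 and 1277 at 200 µM in MYC high libraries. Hmox1 values in MYC low libraries were 1056, 1132 and 1139 at 10 µM and 1012, 1099 and 1179.7 at 200 µM. It rose by 0.19 at 10 µM in MYC high cells (adjusted p = 0.00152) and overlapped in MYC low cells (0.018, 95% interval -0.08 to 0.12). Its interaction of 0.18 (adjusted p = 0.0342) lost the threshold on leaving out any of 5 libraries (replicate 2 of MYC high cells at 200 µM, replicates 2 and 3 of MYC low cells at 200 µM, replicate 2 of MYC high and replicate 1 of MYC low cells at 10 µM; 0.12 to 0.17). Its higher level in MYC high cells at 200 µM (0.18) was lost without replicate 3 of that group (0.15, adjusted p = 0.0513) and with a common library total (0.10, adjusted p = 0.0964).

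In glutathione synthesis, both subunits of the rate-limiting ligase and glutathione reductase rose at 10 µM in both MYC states and were lower in MYC high cells throughout. Gclc (ENSMUSG00000032350, chromosome 9), the catalytic subunit of glutamate-cysteine ligase, had 4150.2, 3803 and 4016 normalized counts at 10 µM and 2452 and 2595 at 200 µM in MYC high libraries. Gclc values in MYC low libraries were 5924, 5970.5 and 5666 at 10 µM and 4772, 4736 and 4770.2 at 200 µM. It rose by 0.66 at 10 µM in MYC high cells (adjusted p = 2.99e-18) and by 0.30 in MYC low cells (adjusted p = 9.45e-10). Gclm (ENSMUSG00000028124, chromosome 3), the modifier subunit, had 2378, 2403 and 2389.5 normalized counts at 10 µM and 2155 and 2188 at 200 µM in MYC high libraries. Gclm values in MYC low libraries were 4738, 4634 and 4616 at 10 µM and 3979, 3933 and 4051 at 200 µM. All of its MYC high libraries were below all MYC low ones, by 1.84-fold at 200 µM and 1.95-fold at 10 µM, and its rises at 10 µM were small (0.14 ± 0.035 in MYC high cells, 0.23 ± 0.031 in MYC low cells). Gsr (ENSMUSG00000031584, chromosome 8), glutathione reductase, which returns oxidized glutathione to its reduced form with NADPH, had 1774, 1878 and 1896 normalized counts at 10 µM and 935 and 969 at 200 µM in MYC high libraries. Gsr values in MYC low libraries were 3159, 3054 and 3056 at 10 µM and 2787, 2798 and 2658 at 200 µM. It was 2.89-fold lower in MYC high than in MYC low cells at 200 µM (log2 -1.53 ± 0.041, adjusted p = 4.40e-28) and 1.67-fold lower at 10 µM, and it rose 1.94-fold at 10 µM in MYC high cells. Gss (ENSMUSG00000027610, chromosome 2), glutathione synthetase, had 656, 659 and 591 normalized counts at 10 µM and 721 and 612 at 200 µM in MYC high libraries. Gss values in MYC low libraries were 766, 702 and 742 at 10 µM and 582, 590.5 and 606 at 200 µM. Its 2 libraries of MYC high cells at 200 µM lay apart and overlapped those at 10 µM (-0.066, 95% interval -0.20 to 0.068). The higher level in MYC high cells at 200 µM (0.16, adjusted p = 0.0249) rested on replicate 2 of that group. Without it the difference was 0.05 (adjusted p = 0.61), without replicate 3 it was 0.28 (adjusted p = 0.00156), and without replicate 3 the lower level at 10 µM in MYC high cells passed (-0.18, adjusted p = 0.0337). The MYC difference of Gss at 200 µM was also lost without replicate 1 or replicate 2 of MYC low cells at 200 µM (0.15 and 0.16), and with a common library total (0.08).

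The glutathione peroxidases ran opposite to the transferases in MYC high cells. Gpx4 (ENSMUSG00000075706, chromosome 10), the peroxidase that reduces lipid hydroperoxides in membranes, had 4183, 4316 and 3637 normalized counts at 10 µM and 7207 and 6519 at 200 µM in MYC high libraries. Gpx4 values in MYC low libraries were 7202, 7145 and 6954 at 10 µM and 9933, 10014 and 9997 at 200 µM. It was 1.7-fold lower at 10 µM in MYC high cells (log2 -0.77 ± 0.045, adjusted p = 7.41e-18) and 1.41-fold lower in MYC low cells (-0.49 ± 0.04), and MYC high cells lay below MYC low cells at either level of methionine. Gpx1 (ENSMUSG00000063856, chromosome 9), the main cytosolic peroxidase, had 1399.7, 1494 and 1249 normalized counts at 10 µM and 2103 and 1913 at 200 µM in MYC high libraries. Gpx1 values in MYC low libraries were 2476, 2270.4 and 2286 at 10 µM and 1962, 2102 and 2133 at 200 µM. It fell at 10 µM in MYC high cells (-0.54, adjusted p = 2.34e-11) and rose by 0.18 in MYC low cells (adjusted p = 0.00145), a rise that did not pass without limma's trend (adjusted p = 0.0621). Between MYC states it overlapped at 200 µM (-0.041, passing at -0.13 with a common library total), and MYC high cells were 1.7-fold lower at 10 µM. Gstp1 (ENSMUSG00000060803, chromosome 19), the pi-class transferase that conjugates glutathione to electrophiles, had 4539, 4812 and 4386 normalized counts at 10 µM and 1935 and 1932 at 200 µM in MYC high libraries. Gstp1 values in MYC low libraries were 4063, 4125 and 3924 at 10 µM and 4102, 3978 and 3846 at 200 µM. It stood apart in MYC high cells at 200 µM, where it was 2.06-fold lower than in MYC low cells (adjusted p = 9.41e-24), rose 2.37-fold at 10 µM (adjusted p = 2.57e-26) and overlapped between media in MYC low cells. Gsto1 (ENSMUSG00000025068, chromosome 19), an omega-class transferase, was also the lowest in MYC high cells at 200 µM, with 4973, 5193 and 4821 normalized counts at 10 µM and 3012 and 2988 at 200 µM in MYC high libraries. Gsto1 values in MYC low libraries were 4926, 5104 and 4883 at 10 µM and 5233, 5032 and 5032 at 200 µM. Its rise in MYC high cells was 0.73 ± 0.036 (adjusted p = 2.61e-20), and in MYC low cells and between MYC states at 10 µM its libraries overlapped. Reads of Gstp1 may be split with its near copy Gstp2, and those of Gpx4, Sod1, Prdx1 and Txn1 with processed copies elsewhere in the genome, depending on how the authors counted reads with several matches.

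**Figure D5:**
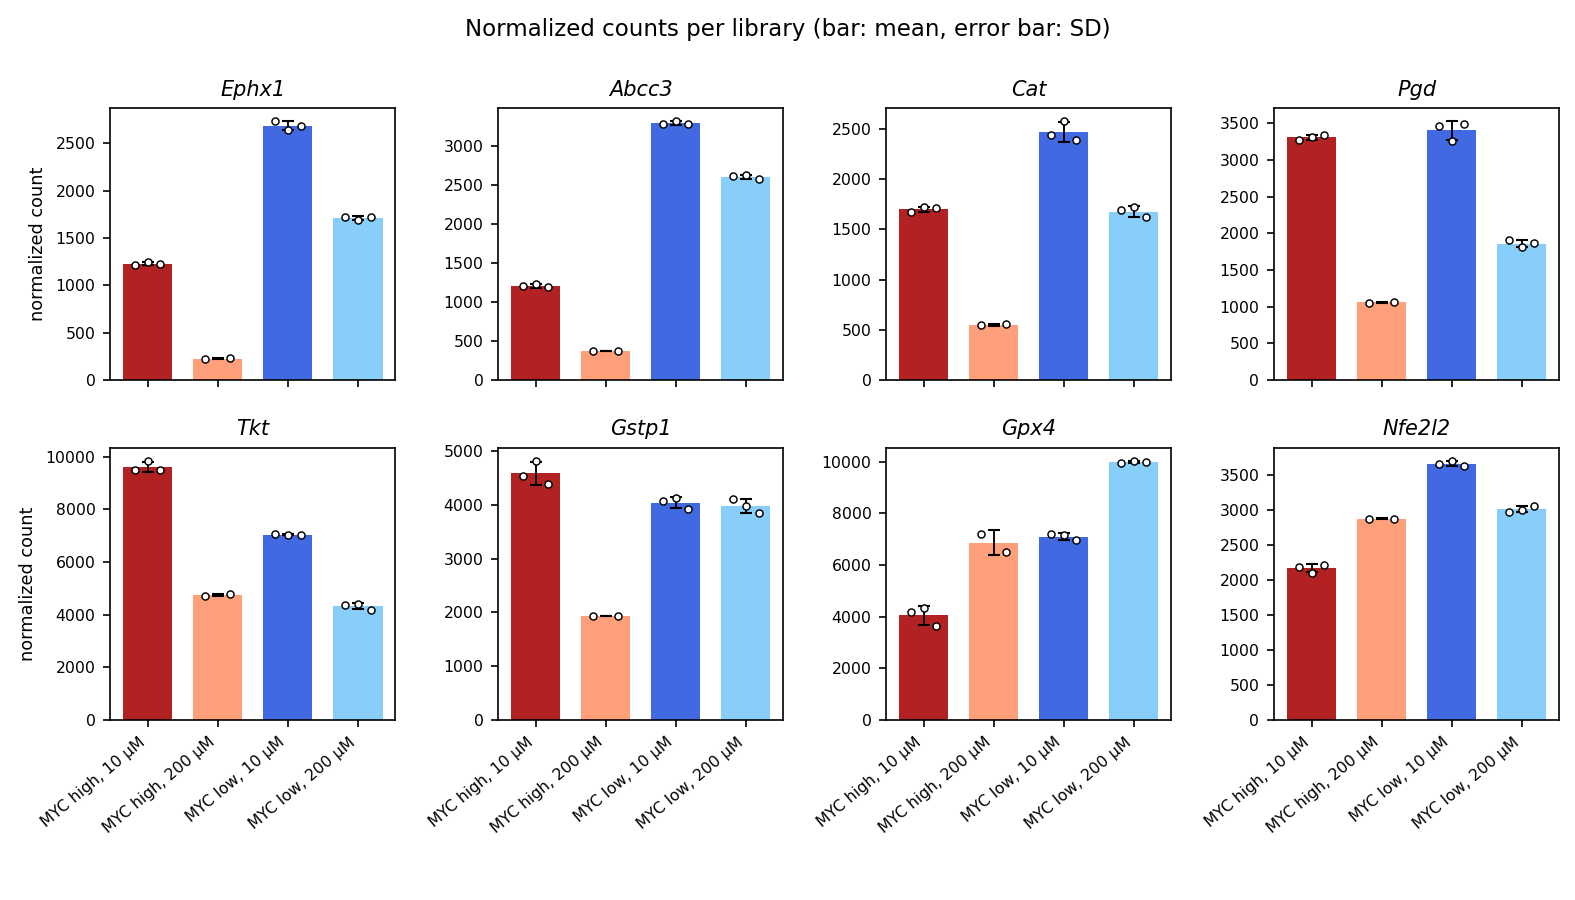
Normalized counts of 8 of the genes in each library (points), with the group mean (bar) and SD (error bar), in MYC high cells at 10 and 200 µM and MYC low cells at 10 and 200 µM. The bar of MYC high cells at 200 µM is the lowest for Ephx1, Abcc3, Cat, Pgd and Gstp1, and the bar of MYC high cells at 10 µM is the lowest for Gpx4 and Nfe2l2.

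In the thioredoxin system, thioredoxin, sulfiredoxin and 3 of 4 peroxiredoxins rose at 10 µM in MYC high cells, while the reductase fell. Txn1 (ENSMUSG00000028367, chromosome 4), cytosolic thioredoxin, had 3299, 3618 and 3379.8 normalized counts at 10 µM and 1833 and 1892 at 200 µM in MYC high libraries. Txn1 values in MYC low libraries were 2203, 2176 and 2182 at 10 µM and 1552, 1609 and 1642 at 200 µM. It rose by 0.88 in MYC high cells (adjusted p = 1.11e-20) and by 0.45 in MYC low cells (adjusted p = 4.40e-13), and MYC high cells were higher at both levels of methionine (0.22 at 200 µM, 0.13 with a common library total, and 0.65 at 10 µM). Txnrd1 (ENSMUSG00000020250, chromosome 10), the cytosolic thioredoxin reductase, had 2541, 2383 and 2715 normalized counts at 10 µM and 3327 and 3284 at 200 µM in MYC high libraries. Txnrd1 values in MYC low libraries were 2016, 1908 and 1871 at 10 µM and 3095, 3165 and 3159.8 at 200 µM. Every 10 µM library was below every 200 µM library, by 1.3-fold in MYC high and 1.62-fold in MYC low cells (limma, adjusted p = 6.08e-10 and 4.44e-18). MYC high cells were higher at 10 µM (0.40), and the difference at 200 µM did not pass (0.074, 95% interval -0.014 to 0.16). Srxn1 (ENSMUSG00000032802, chromosome 2), sulfiredoxin, which repairs overoxidized peroxiredoxins, had 946, 932 and 906 normalized counts at 10 µM and 399 and 373 at 200 µM in MYC high libraries. Srxn1 values in MYC low libraries were 2338, 2337 and 2341 at 10 µM and 1480.1, 1529 and 1519 at 200 µM. The MYC high libraries were below the MYC low ones throughout, 3.91-fold at 200 µM and 2.52-fold at 10 µM, and at 10 µM it rose 2.4-fold in MYC high and 1.55-fold in MYC low cells. Prdx1 (ENSMUSG00000028691, chromosome 4), a cytosolic peroxiredoxin, had 5129, 5333 and 5079 normalized counts at 10 µM and 2386 and 2463 at 200 µM in MYC high libraries. Prdx1 values in MYC low libraries were 7085, 7305 and 6996 at 10 µM and 3951, 3972 and 3997 at 200 µM. Its rises at 10 µM were 2.14-fold in MYC high and 1.79-fold in MYC low cells, with no overlap between media.

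The other peroxiredoxins moved less. Prdx3, the mitochondrial one, spanned 2782 to 2883 normalized counts at 10 µM and 2082 to 2164 at 200 µM in MYC high libraries. Prdx3 values in MYC low libraries spanned 1509.6 to 1608 at 10 µM and 1339 to 1393 at 200 µM. It was higher in MYC high cells at both methionine levels (0.64 at 200 µM and 0.86 at 10 µM) and rose at 10 µM in both MYC states (0.42 and 0.19). Prdx6, a peroxiredoxin with a single active cysteine that also acts as a phospholipase, spanned 2854 to 2904 normalized counts at 10 µM and 3352 to 3438 at 200 µM in MYC high libraries. Prdx6 values in MYC low libraries spanned 2223 to 2329 at 10 µM and 2547 to 2661 at 200 µM. It fell at 10 µM in MYC high (-0.23) and MYC low cells (-0.20), and was higher in MYC high cells at both levels. Prdx2, another cytosolic peroxiredoxin, spanned 3656 to 4030.5 normalized counts at 10 µM and 3019.7 to 3098 at 200 µM in MYC high libraries. Prdx2 values in MYC low libraries spanned 3219 to 3305 at 10 µM and 3226 to 3412 at 200 µM. It rose by 0.31 at 10 µM in MYC high cells (adjusted p = 5.01e-09) and overlapped in MYC low cells. Its lower level in MYC high cells at 200 µM (-0.11, adjusted p = 0.00923) was lost without replicate 2 of that group or replicate 1 of MYC low cells at 200 µM (-0.10 and -0.09), and was -0.20 with a common library total.

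Of the efflux carriers that export glutathione and glucuronide conjugates, Abcc3 differed most. Abcc3 (ENSMUSG00000020865, chromosome 11), a basolateral exporter of glucuronides and bile acids in liver, had 1201, 1236 and 1189.7 normalized counts at 10 µM and 370.2 and 377 at 200 µM in MYC high libraries. Abcc3 values in MYC low libraries were 3286, 3322 and 3284 at 10 µM and 2618, 2628 and 2580.1 at 200 µM. No groups overlapped, and MYC high cells were 6.99-fold lower than MYC low cells at 200 µM (log2 -2.80 ± 0.042, adjusted p = 7.01e-36) and 2.73-fold lower at 10 µM. At 10 µM it rose 3.24-fold in MYC high and 1.26-fold in MYC low cells. Abcc1 (ENSMUSG00000023088, chromosome 16), an exporter of glutathione conjugates, had 2400.1, 2395 and 2430.0 normalized counts at 10 µM and 1091 and 1176 at 200 µM in MYC high libraries. Abcc1 values in MYC low libraries were 1528, 1457 and 1557 at 10 µM and 1615, 1652 and 1523 at 200 µM. It was the highest in MYC high cells at 10 µM and the lowest in MYC high cells at 200 µM, with a rise of 1.09 ± 0.045 (adjusted p = 2.38e-22). In MYC low cells the difference of -0.076 did not pass (95% interval -0.16 to 0.007), but did without replicate 3 of MYC low cells at 200 µM (-0.11, adjusted p = 0.0362). Abcc4 (ENSMUSG00000032849, chromosome 14), an exporter of cyclic nucleotides and bile acids, had 918, 946 and 1019.6 normalized counts at 10 µM and 1236 and 1166 at 200 µM in MYC high libraries. Abcc4 values in MYC low libraries were 1406, 1445 and 1508 at 10 µM and 1867, 1846 and 1814 at 200 µM. It was lower at 10 µM in MYC high (-0.32 ± 0.049) and MYC low cells (-0.34 ± 0.044), and 1.51-fold lower in MYC high than in MYC low cells at 10 µM.

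The 4 members of the pentose phosphate pathway rose at 10 µM in both MYC states, each with a positive interaction. G6pdx (ENSMUSG00000031400, chromosome X), glucose-6-phosphate dehydrogenase, which catalyses the first and rate-limiting step and makes NADPH, had 3878, 3882 and 3869.8 normalized counts at 10 µM and 2157 and 2099.5 at 200 µM in MYC high libraries. G6pdx values in MYC low libraries were 3009, 2879.5 and 2866 at 10 µM and 2531, 2659 and 2416 at 200 µM. It rose 1.82-fold in MYC high cells (adjusted p = 3.58e-21) and 1.15-fold in MYC low cells (adjusted p = 5.09e-06), and MYC high cells were lower at 200 µM (-0.25) and higher at 10 µM (0.41). Pgd (ENSMUSG00000028961, chromosome 4), the next NADPH-producing dehydrogenase, had 3277, 3310.5 and 3343 normalized counts at 10 µM and 1056 and 1062 at 200 µM in MYC high libraries. Pgd values in MYC low libraries were 3458, 3253 and 3495 at 10 µM and 1905, 1811 and 1863 at 200 µM. Its rises were 3.13-fold in MYC high and 1.83-fold in MYC low cells, the MYC states overlapped at 10 µM (-0.039), and at 200 µM MYC high cells were 1.76-fold lower. Taldo1 (ENSMUSG00000025503, chromosome 7), transaldolase of the non-oxidative branch, had 3166, 3287 and 3133 normalized counts at 10 µM and 1777 and 1719.7 at 200 µM in MYC high libraries. Taldo1 values in MYC low libraries were 4698, 4664 and 4659 at 10 µM and 4120.4, 3972 and 4128 at 200 µM. It rose 1.83-fold in MYC high and 1.15-fold in MYC low cells and stayed lower in MYC high cells at both levels. Tkt (ENSMUSG00000021957, chromosome 14), transketolase of the same branch, had 9515, 9840.3 and 9494 normalized counts at 10 µM and 4726 and 4782 at 200 µM in MYC high libraries. Tkt values in MYC low libraries were 7063, 7029 and 7036 at 10 µM and 4382, 4398 and 4186 at 200 µM. It rose 2.02-fold and 1.63-fold in MYC high and MYC low cells. The small excess of Tkt in MYC high cells at 200 µM (0.14, adjusted p = 0.00027) did not pass with a common library total (0.05, adjusted p = 0.136).

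Catalase and the superoxide dismutases also rose at 10 µM in MYC high cells. Cat (ENSMUSG00000027187, chromosome 2), which splits hydrogen peroxide in peroxisomes, had 1673, 1719.5 and 1713 normalized counts at 10 µM and 545 and 557 at 200 µM in MYC high libraries. Cat values in MYC low libraries were 2439.7, 2579.6 and 2387 at 10 µM and 1691, 1723 and 1619 at 200 µM. It was 3.09-fold higher at 10 µM in MYC high cells (log2 1.62 ± 0.045, adjusted p = 4.67e-28) and 1.47-fold higher in MYC low cells, and 3.04-fold lower in MYC high than in MYC low cells at 200 µM. Sod2 (ENSMUSG00000006818, chromosome 17), the mitochondrial manganese enzyme, had 892, 920.5 and 835 normalized counts at 10 µM and 603 and 580.3 at 200 µM in MYC high libraries. Sod2 values in MYC low libraries were 435, 413 and 430.3 at 10 µM and 432, 436 and 417 at 200 µM. MYC high cells were above MYC low cells at both levels (2.07-fold at 10 µM and 1.38-fold at 200 µM), and the response to 10 µM was 0.57 in MYC high cells against an overlapping -0.008 in MYC low cells (95% interval -0.12 to 0.11). Sod1 (ENSMUSG00000022982, chromosome 16), the cytosolic copper and zinc enzyme, spanned 4254 to 4829.5 normalized counts at 10 µM and 3058 to 3339.6 at 200 µM in MYC high libraries. Sod1 values in MYC low libraries spanned 3353 to 3515 at 10 µM and 3105 to 3212 at 200 µM. It rose by 0.49 in MYC high cells (adjusted p = 9.19e-13) and by 0.13 in MYC low cells (adjusted p = 0.00417, and 0.0775 without limma's trend). MYC high cells were higher at 10 µM (0.38), and at 200 µM the MYC states overlapped (0.021).

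Below the level for testing, Nqo1, the quinone reductase often read as a marker of NRF2 activity, had 3 reads in all over MYC high cells at 10 µM, 1 read over MYC low cells at 10 µM and 0 reads at 200 µM in either MYC state. Cbr3, a carbonyl reductase, had 0 reads in all 11 libraries, where 3 reads, the upper 95% limit for a count of 0, correspond to 2.65 to 3.43 normalized counts. Neither transcript was therefore measurable at this depth in any group. Gstm1, a mu-class transferase, had 10.2, 11.1 and 15.2 normalized counts at 10 µM and 1.14 and 0 at 200 µM in MYC high libraries. Gstm1 values in MYC low libraries were 11.8, 16.1 and 7.05 at 10 µM and 1.95, 0 and 0.968 at 200 µM. All 6 libraries at 10 µM were above all 5 at 200 µM. From pooled reads the ratio of 10 to 200 µM was 22.1 in MYC high cells (36 reads against 1, exact 95% counting interval 3.73 to 898) and 11.7 in MYC low cells (38 reads against 3, interval 3.70 to 59.1), intervals that cover counting error only. Reads of Gstm1 may be shared with other genes of the Gstm family.

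Partners and adaptors of NRF2 mostly fell at 10 µM. Of 10 listed, 9 were tested, of which 1 rose and 6 fell in MYC high cells and 1 rose and 7 fell in MYC low cells. For this and the lists that follow, the shares of all genes at 10 µM were 37.9% higher and 37.9% lower in MYC high cells, and 29.4% higher and 29.9% lower in MYC low cells. Sqstm1, the autophagy receptor p62 that binds KEAP1 and is itself an NRF2 target, had 10119.8, 10834 and 10031 normalized counts at 10 µM and 54187 and 55074 at 200 µM in MYC high libraries. Sqstm1 values in MYC low libraries were 15131, 14947 and 14948 at 10 µM and 36206, 36014 and 36849.6 at 200 µM. It fell at 10 µM in MYC high cells (-2.40, adjusted p = 1.56e-38) and in MYC low cells (-1.28, adjusted p = 7.00e-31), and every 10 µM library was below every 200 µM library. Mafk, a small MAF partner of NRF2, fell in MYC high (-2.07) and MYC low cells (-0.66), and Maff, another, fell in MYC low cells (-1.28). Nfe2l1, a relative of NRF2, was lower in MYC high than in MYC low cells at 10 µM (-0.55) and at 200 µM (-0.64).

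Further genes known as NRF2 targets mostly rose at 10 µM in MYC high cells and were mostly lower in MYC high cells at 200 µM, with Akr1b3, Osgin1 and Slc7a11 lower at 10 µM in MYC high cells. Of 18 tested among 20 listed, 14 rose and 3 fell at 10 µM in MYC high cells (median 0.76), and 8 rose and 5 fell in MYC low cells (median 0.16). At 200 µM 3 were higher and 15 lower in MYC high than in MYC low cells (median -0.43), and at 10 µM 8 were higher and 9 lower (median -0.20), against 36.8% higher and 37.6% lower of all genes at 200 µM and 35.7% and 35.8% at 10 µM. The counts in MYC low cells and those between MYC states at 10 µM were nearer to these shares than the others. Cbr1, a carbonyl reductase, had 1795, 1840.1 and 1663 normalized counts at 10 µM and 386 and 376 at 200 µM in MYC high libraries. Cbr1 values in MYC low libraries were 2039, 2054 and 2102 at 10 µM and 2096, 2042 and 2058 at 200 µM. It stood apart in MYC high cells at 200 µM and was 4.64-fold higher at 10 µM in those cells (adjusted p = 5.74e-32), with an interaction of 2.21 ± 0.061. Akr1b3, an aldose reductase, had 3305, 3282 and 3078 normalized counts at 10 µM and 9670.4 and 10295 at 200 µM in MYC high libraries. Akr1b3 values in MYC low libraries were 2636, 2524 and 2548 at 10 µM and 2669.6, 2459 and 2723 at 200 µM. Its MYC high libraries at 200 µM stood far above all others, and its interaction was -1.61 ± 0.056 (limma, adjusted p = 5.76e-24). Osgin1, an oxidative stress-induced growth inhibitor, fell at 10 µM in MYC high (-2.10) and MYC low cells (-0.84). Slc7a11, the cystine carrier of system xc-, had 131, 137 and 129.6 normalized counts at 10 µM and 435 and 437 at 200 µM in MYC high libraries. Slc7a11 values in MYC low libraries were 106, 104 and 100.5 at 10 µM and 328, 335 and 348 at 200 µM. Its libraries at 10 µM were all lower than those at 200 µM, by 3.29-fold in MYC high and 3.25-fold in MYC low cells. Entpd5 and Aox1 were lower in MYC high cells at 200 µM (-2.15 and -1.94) and at 10 µM (-1.48 and -1.27).

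Of 12 genes of glutathione supply and breakdown, 8 were tested, and 3 rose and 4 fell at 10 µM in MYC high cells, with 1 and 4 in MYC low cells. In MYC high cells these counts lay near the shares of all genes (37.9% each way). Chac1, which degrades glutathione in the cytosol and is known as a stress-induced gene, had 369, 255 and 257 normalized counts at 10 µM and 3311 and 3203 at 200 µM in MYC high libraries. Chac1 values in MYC low libraries were 218, 176 and 235 at 10 µM and 1499.6, 1368 and 1485 at 200 µM. It fell at 10 µM in MYC high cells (-3.49, adjusted p = 1.42e-27) and in MYC low cells (-2.80, adjusted p = 1.97e-25). Its excess in MYC high cells at 10 µM (0.47) was 0.30 without replicate 1 of that group (adjusted p = 0.000684). Chac2, the constitutive form, rose by 1.49 in MYC high and by 0.66 in MYC low cells. Slc3a2, the heavy chain of the cystine carrier and of other amino acid carriers, fell in MYC high (-2.00) and MYC low cells (-1.02). Slc25a39, a carrier that brings glutathione into mitochondria, had more transcript at 10 µM in MYC high cells than in MYC low ones (0.63).

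Other glutathione enzymes had 14 of 25 listed genes tested, of which 11 rose and 2 fell at 10 µM in MYC high cells (median 0.89; all genes 37.9% each way) and 7 rose and 3 fell in MYC low cells (median 0.19; all genes 29.4% and 29.9%). The alpha-class transferases Gsta2 and Gsta1 rose by 2.23 and 1.89 in MYC high and by 0.73 and 0.99 in MYC low cells, and as close copies of each other they may share reads. Gstp2, the near copy of Gstp1, rose by 1.78 in MYC high cells (adjusted p = 1.50e-15), with an interaction of 1.68 ± 0.168. At 200 µM 2 of the 14 were higher and 9 lower in MYC high than in MYC low cells, and at 10 µM 6 were higher and 2 lower (all genes 36.8% and 37.6% at 200 µM, 35.7% and 35.8% at 10 µM). Gsta4, another alpha-class transferase, was lower in MYC high cells at 200 µM (-1.04), and Hagh, a glyoxalase, was higher at 10 µM (0.66).

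Among 20 tested of 21 other thioredoxin, glutaredoxin and sulfur repair genes, 10 rose and 8 fell at 10 µM in MYC high cells (median 0.20) and 8 rose and 4 fell in MYC low cells (median 0.05). The total called in MYC low cells was close to the 59.4% of all genes. Msrb1, a methionine sulfoxide reductase, rose by 1.47 in MYC high and by 0.79 in MYC low cells. Txnrd3, a relative of Txnrd1, fell in MYC high (-1.37) and MYC low cells (-1.33), and Sesn2, a sestrin, fell in MYC high cells (-1.14). Glrx, cytosolic glutaredoxin, was lower in MYC high than in MYC low cells at both levels of methionine (-2.20 at 10 µM and -2.25 at 200 µM), as was Sesn3 (-1.70 and -1.87). Glrx5, the mitochondrial glutaredoxin of iron-sulfur cluster assembly, was higher in MYC high cells at 200 µM (1.08), and at 10 µM its means were 2209 ± 107 normalized counts in MYC high cells, against 1098 ± 68.1 in MYC low cells (SD, n = 3 each).

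Of 19 further genes of the pentose phosphate pathway and of NADPH supply, 15 were tested, and 9 rose and 3 fell at 10 µM in MYC high cells (median 0.62), with 7 and 1 in MYC low cells (median 0.20). The totals called were near the 75.8% and 59.4% of all genes, with more of the calls higher than lower. Idh1, cytosolic NADP-dependent isocitrate dehydrogenase, had 1470.0, 1433 and 1448 normalized counts at 10 µM and 367 and 367 at 200 µM in MYC high libraries. Idh1 values in MYC low libraries were 4044, 4146 and 4099.6 at 10 µM and 1706, 1619 and 1579 at 200 µM. It was the lowest in MYC high cells at 200 µM and rose 3.95-fold at 10 µM in MYC high cells (adjusted p = 3.38e-31) and 2.51-fold in MYC low cells (adjusted p = 1.47e-26). Prps2, a phosphoribosyl pyrophosphate synthetase, rose in MYC high cells (1.31) as well as MYC low cells (1.24), and Me2, a mitochondrial malic enzyme, rose by 1.26 in MYC high cells with an interaction of 1.30 ± 0.064. Between MYC states, Me2 and Nadk2, the mitochondrial NAD kinase, were higher in MYC high cells at 10 µM (1.75 and 1.45), and their means at 200 µM were also the higher in MYC high cells (1215 ± 25 against 887 ± 26.1 normalized counts for Me2, 477 ± 52 against 341 ± 14.2 for Nadk2; SD, n = 2 and 3). Prps1 was higher in MYC high cells at 200 µM (1.23), with means at 10 µM of 1505 ± 29.2 normalized counts in MYC high cells, against 622 ± 20.3 in MYC low cells (SD, n = 3 each). H6pd, the glucose-6-phosphate dehydrogenase of the endoplasmic reticulum, was lower in MYC high cells at 200 µM (-0.99).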

How the data were processed

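The deposited values are normalized counts, 1 signal value per gene and library, per the labels. Build GRCm39 and, without versions, DESeq2, HTSeq, STAR, SAMtools, fastp and FastQC stand in the submitters' processing notes. Not given in the sources used here are annotation, strand setting and treatment of reads with several matches. In each library 100% of values were whole multiples (within 0.001) of 1 step, which gave back the reads (size factors 0.875 to 1.13). Symbols were matched for 52083 of 55416 identifiers. Exon lengths, from the merged exons of each gene, and chromosomes came from the GENCODE M21 basic annotation of build GRCm38.

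Groups were compared on log2(value + 1), which understates changes of low genes, with limma 3.58.1 in R 4.3.3. The model gave each group its mean and used limma's trend. It had 7 residual degrees of freedom and a prior of 29. Two-sided p-values were adjusted by Benjamini-Hochberg over 12909 genes per comparison, with a threshold of 0.05. SE and 95% intervals are limma's. The group with 2 libraries is assumed to vary like the others. As alternatives, edgeR 4.0.16 on the recovered reads called 9718 genes for methionine in MYC high cells, 7915 in MYC low cells, 9386 at 10 µM and 9583 at 200 µM for MYC, and 7757 for the interaction (limma 9787, 7666, 9232, 9600 and 7798), and DESeq2 1.42.0, other pseudocounts, filters and scaling were tried. All 33 members are named, and of each further list up to 3 genes per comparison with the largest differences among those with an adjusted p under 0.05 and a mean of at least 100. Members and lists were chosen with earlier results of these data known.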

Additional observations from a re-analysis of the deposited data

Results flagged for a closer look

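The response to 10 µM methionine differed between MYC high and MYC low cells by the interaction test (limma, adjusted p under 0.05 over all genes) for 26 of the 30 tested genes, when 60.4% of all genes passed. The interaction, as log2 response in MYC high minus that in MYC low cells, was above 1 for Ephx1 (1.78), Abcc3 (1.35), Gstp1 (1.22), Abcc1 (1.16) and Cat (1.07). It was 0.79 for Gsr, 0.77 for Gsto1 and for Pgd, 0.67 for Taldo1, 0.66 for G6pdx, 0.63 for Srxn1 and 0.58 for Sod2. Smaller positive values were those of Txn1 (0.43), Ugdh (0.41), Gclc (0.36), Sod1 (0.36), Prdx2 (0.33), Txnrd1 (0.32), Tkt (0.31), Prdx1 (0.25), Prdx3 (0.22) and Hmox1 (0.18). Negative ones were Gpx1 (-0.72), Nfe2l2 (-0.69), Gss (-0.38) and Gpx4 (-0.27). For Txnrd1 the positive value stands for a smaller fall in MYC high cells, and for Ugdh, Nfe2l2 and Gpx1 the calls in the MYC states were opposite.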

How the results depend on the processing

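Of the counts of members and of all genes called in each direction, 415 values under the alternatives stayed within 1.5 times the main count and 1 did not: with a common library total, 4 members in place of 7 were higher in MYC high cells at 200 µM, where the scaling moved the median of all genes to -0.089. No called difference of a named gene changed sign under any alternative. Among differences of single genes, 5066 kept their side of the threshold, 22 lost it and 8 gained it, and those of members stand beside their values above, except Pgd, which passed as lower in MYC high cells at 10 µM with a common library total (-0.10, adjusted p = 0.0155), Gss and Hmox1, of which the MYC difference at 200 µM of Gss and the interaction of Hmox1 did not pass without a filter (adjusted p = 0.0639 and 0.0974) or without limma's trend (0.0847 and 0.133), Prdx2 at 200 µM without trend (0.0659), and the interaction of Hmox1 under DESeq2 (0.074). Without a filter, Gstm1 was also tested and rose in both MYC states, which made the higher members 24 for MYC high cells and 20 for MYC low cells. Leaving out each library in turn gave 23 members higher in every case and 6 to 7 lower at 10 µM in MYC high cells, 19 higher and 5 to 6 lower in MYC low cells, 12 higher and 15 lower for MYC at 10 µM, 6 to 7 higher and 17 to 19 lower for MYC at 200 µM, and 21 to 22 positive and 4 negative for the interaction.

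Libraries with the same replicate number did not deviate together (correlations of -0.049 to 0.026 over 15 pairs, against -0.046 to 0.049 over 30 pairs of different numbers), so the numbers were not taken as pairs. With the replicate number as a block, the members called were 23 higher and 6 lower at 10 µM in MYC high cells, 19 and 5 in MYC low cells, 7 and 18 for MYC at 200 µM, 12 and 15 at 10 µM, and 22 and 4 for the interaction, and 9668, 7653, 9495, 9214 and 7663 of all genes passed in the same order.

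Depth limits Nqo1, Cbr3 and Gstm1, and 1 group has 2 libraries. Normalized counts are relative, so a change in total RNA per cell was not measured. All cells are of 1 line.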

Other observations

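Gpx1, Gpx4 and Txnrd1, the members encoded with selenocysteine, were all lower at 10 µM in MYC high cells. To see how selenoproteins lay, the 24 known in mouse were listed after these values had been seen, so they are described without a test. The 18 averaging 10 or more include Gpx1, Gpx4 and Txnrd1 themselves, so the counts below partly restate the falls that prompted the list. In MYC high cells the difference between 10 and 200 µM was above 0 for 8 of the 18 and below 0 for 10 (median -0.16, all genes -0.004). In MYC low cells it was above 0 for 12 and below 0 for 6 (median 0.12, all genes 0.001). Selenow had 271 to 306 normalized counts at 10 µM and 839 to 911 at 200 µM in MYC high libraries. Selenow values in MYC low libraries spanned 463 to 474 at 10 µM and 642 to 719 at 200 µM. Selenom lay the other way, with 858 to 1003 normalized counts at 10 µM and 248 to 283 at 200 µM in MYC high libraries. Selenom values in MYC low libraries spanned 530.0 to 576 at 10 µM and 304 to 386 at 200 µM. Msrb1 and Selenon also had positive differences in both MYC states (Msrb1 1.47 and Selenon 0.72 for MYC high, Msrb1 0.79 and Selenon 0.17 for MYC low cells). The selenoproteins as a group thus did not move in 1 direction.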
